A study of Rattus norvegicus with 105 samples.

Results

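The genes of sterol and fatty acid synthesis were followed in RNA from rat frontal cortex, on 105 Affymetrix rat arrays that fall into 3 experiments and 11 groups. A list of 32 genes was matched by symbol to the array's probe-to-gene table, and the brightest probe set of a gene, by mean signal, stood for it. Of the 32 genes, 31 had a probe set, among 31042 probe sets without controls. Hmgcs1 had none under that symbol and was not analysed here. In all, 50 probe sets carried the symbol of a member, and 16 members had more than 1. All 31 members were bright enough to be tested in every experiment.

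In the lesion experiment 12 arrays came from rats with a ventral hippocampal (VH) lesion and 10 from its own sham rats. The TTX experiment held 11 arrays from rats in which the ventral hippocampus had been treated with tetrodotoxin (TTX), a blocker of voltage-gated sodium channels, and 9 from its own sham rats. The neuroleptic experiment held 9 vehicle arrays. Clozapine, an atypical antipsychotic, had 10 arrays at its low dose, 9 at its medium and 8 at its high dose. Haloperidol, a typical antipsychotic that blocks dopamine D2 receptors, had 9 arrays per dose at the same 3 dose words. The drugs were given chronically, the amounts behind the dose words are not in the labels, and the 6 drug groups share the same vehicle arrays. Strain, age and sex are not given in the labels used here. Nothing in the labels ties each array to its own animal, and the p-values therefore measure spread between samples that may be technical in part.

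Cholesterol in the brain is made there, since the lipoproteins of the blood hardly cross into it, and much of it goes into myelin made by oligodendrocytes and, in adults, into neuronal membranes supplied by astrocytes. Synthesis runs from acetyl-CoA through mevalonate and squalene to lanosterol and on to cholesterol. Its enzymes, and those of fatty acid synthesis and desaturation, are switched on together by the sterol regulatory element binding proteins (the products of Srebf1 and Srebf2), which Scap escorts out of the endoplasmic reticulum and the Insig proteins hold back when sterols are plentiful. Antipsychotic drugs are known to raise transcripts of this pathway in cultured glial cells.

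The arrays carried transcripts of neurons and glia, and no marker particular to cortex was among those examined. All 9 neuronal markers examined, among them Snap25 and Camk2a, had a mean signal above at least 93.6% of probe sets, all 12 astrocyte markers and 13 or 14 oligodendrocyte markers passed the filter on low signal, and the 3 fat cell markers did not pass it in any experiment. The arrays whose mean correlation with their experiment fell more than 3 median absolute deviations below the median were VH lesion array 7, array 9 of the sham rats of the lesion experiment, and array 8 of medium and of high haloperidol. Where a call on a member changes without them, this is stated. Arrays are numbered within a group in the order of the series. Precision is limited by the number of arrays.

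Differences are given on the log2 scale as the lesion, TTX or drug group minus its own control, with the standard error (SE) of the fit. A probe set was called at a Benjamini-Hochberg adjusted p under 0.05 in limma, adjusted over all 18625 probe sets tested. Across the 14 comparisons, 1 member was called. Fdft1, which encodes squalene synthase, the enzyme that joins farnesyl diphosphate into squalene and so commits the pathway to sterols, fell at high haloperidol and in the mean of the 3 haloperidol doses. The other 30 members were not called in any comparison.

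At high haloperidol, Fdft1 ranged over the 9 arrays from 12.61 to 12.92 with a median of 12.78 on the log2 scale. The 9 vehicle arrays ranged from 12.96 to 13.25 with a median of 13.01. Every high haloperidol array lay below every vehicle array. The means were 12.77 ± 0.08 at high haloperidol and 13.04 ± 0.09 in vehicle (SD, n = 9 each), a difference of -0.27 ± 0.05 (SE), or 1.20-fold lower (limma, adjusted p = 0.00561). The 95% interval of the difference ran from -0.37 to -0.17. In this comparison 5 probe sets, 0.0268% of those tested, were called.

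**Figure D1:**
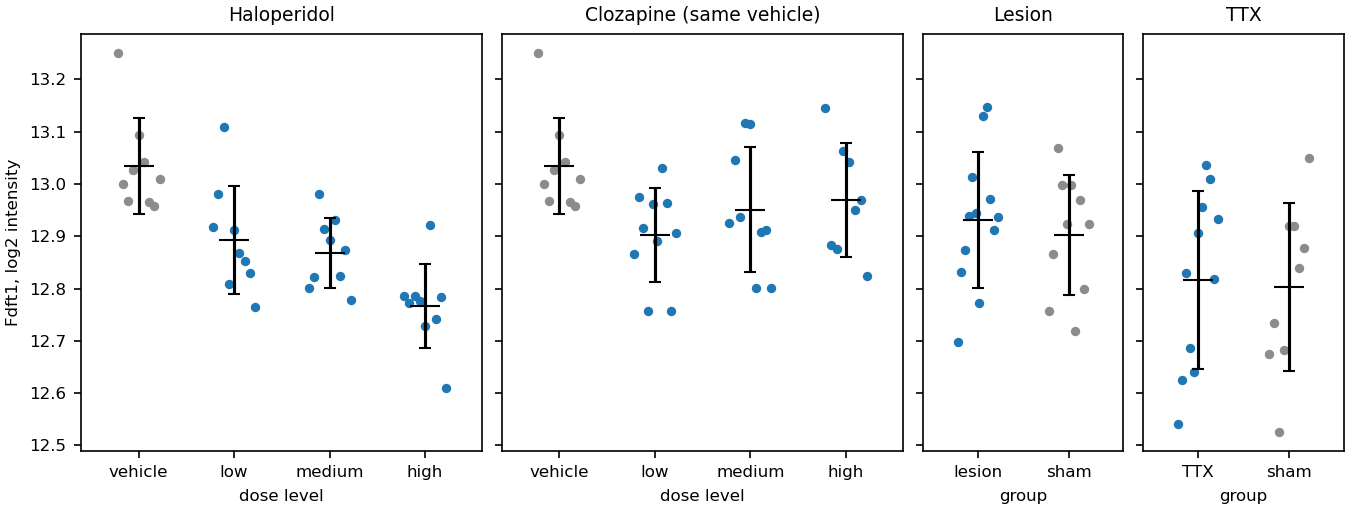
Log2 intensity of Fdft1 on every array (points), with the mean and SD of each group in black; drug panels run from vehicle to the high dose, and both use the same vehicle arrays. The 9 high haloperidol arrays, at 12.61 to 12.92, all lie below the 9 vehicle arrays, at 12.96 to 13.25, while lesion and sham, and TTX and sham, overlap.

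At the lower haloperidol doses the values of Fdft1 lay between those of vehicle and of the high dose. Vehicle averaged 13.04 ± 0.09, low haloperidol 12.89 ± 0.10, medium haloperidol 12.87 ± 0.07 and high haloperidol 12.77 ± 0.08 (SD, n = 9 each). Low haloperidol ranged from 12.76 to 13.11 with a median of 12.87, and medium haloperidol from 12.78 to 12.98 with a median of 12.87, so both overlapped vehicle. The differences from vehicle were -0.14 ± 0.05 at the low dose (limma, adjusted p = 0.999) and -0.17 ± 0.05 at the medium dose (limma, adjusted p = 0.762), and neither was called. The direct difference between the high and the low dose was -0.13 ± 0.05 (limma, adjusted p = 0.874), which was not called, so an order by dose was not established.

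Over the 27 haloperidol arrays together, Fdft1 fell by 0.19 on the log2 scale, at 0.04 SE, with 26 of 27 arrays below the vehicle mean (limma, adjusted p = 0.0498). This comparison called 4 probe sets, 0.0215% of those tested. The adjusted p lay at the threshold, and the call held in 16 of 63 fits that each left out 1 array. It was also lost without the arrays of low correlation (limma, adjusted p = 0.0691).

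The titles number the samples without a gap within an experiment. The labels name no batches, and for this work the neuroleptic numbers were divided into 3 runs, each opening where vehicle samples are followed by high clozapine samples and each holding all 7 groups. The lesion and the TTX numbers were divided at their middle. Within these runs the Fdft1 difference between high haloperidol and vehicle was -0.35 over 2 and 2 arrays, -0.22 over 2 and 2 arrays, and -0.26 over 5 and 5 arrays. The difference between the haloperidol mean and vehicle was -0.24, -0.15 and -0.22 in the same runs. The direction was therefore the same in each run.

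A vehicle array lay apart from the others at 13.25, with the next at 13.09. Without it the high haloperidol difference was -0.24 and was still called (limma, adjusted p = 0.0417). Across all 63 fits that left out 1 array, the difference at high haloperidol stayed between -0.29 and -0.24 and was called each time, with adjusted p between 0.00264 and 0.0417. A second probe set of Fdft1 gave a difference of -0.13 ± 0.06 at high haloperidol (limma, adjusted p = 0.602) and was not called.

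A measure of RNA integrity was higher for beta-actin at each haloperidol dose than in vehicle, and highest at the high dose. For Gapdh the high dose lay close to vehicle. The log2 ratio of the 3-prime to the 5-prime Gapdh control probe sets averaged 0.08 ± 0.05 at high haloperidol and 0.07 ± 0.05 in vehicle (SD, n = 9 each). The log2 ratio of the 3-prime to the 5-prime beta-actin control probe sets averaged 1.12 ± 0.14 at high haloperidol and 0.94 ± 0.11 in vehicle (SD, n = 9 each), and 0.94 ± 0.15 at high clozapine (SD, n = 8). With this ratio as a covariate, an alternative chosen after seeing the data, the Fdft1 difference at high haloperidol was -0.23 (limma, adjusted p = 0.109) and was no longer called. The call was also lost when each array was scaled to a common median, at -0.32 (limma, adjusted p = 0.077), and when only vehicle and high haloperidol arrays were fitted, at -0.27 (limma, adjusted p = 0.17).

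Clozapine, measured against the same vehicle arrays, also gave Fdft1 means below vehicle at every dose. The low clozapine mean was close to that of low haloperidol, at 12.89 ± 0.10 (SD, n = 9), and the amounts behind the dose words are not given. Vehicle averaged 13.04 ± 0.09 (SD, n = 9), low clozapine 12.90 ± 0.09 (SD, n = 10), medium clozapine 12.95 ± 0.12 (SD, n = 9) and high clozapine 12.97 ± 0.11 (SD, n = 8). The differences from vehicle were -0.13 ± 0.05, -0.08 ± 0.05 and -0.07 ± 0.05 in the order of dose, and none was called. At low clozapine all 10 arrays lay below the vehicle mean. The highest low clozapine array was at 13.03 and the lowest vehicle array at 12.96, so the groups overlapped.

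The direct difference between the drugs, the haloperidol mean minus the clozapine mean, was -0.10 ± 0.03 for Fdft1, with 24 of 27 haloperidol arrays below the clozapine mean (limma, adjusted p = 0.0605). The 95% interval ran from -0.15 to -0.04. It was not called. With the runs of sample numbers as a factor the difference was -0.11 and was called (limma, adjusted p = 0.0217), as it was under common median scaling (limma, adjusted p = 0.0488) and with the brightest 40% of probe sets (limma, adjusted p = 0.0499). The other settings of the closing section, single arrays left out aside, did not call it. It was called in 6 of the 63 fits that left out 1 array, those without high clozapine array 2, medium clozapine array 1, low clozapine array 9, or low array 3, medium array 3 or high array 6 of haloperidol. Their adjusted p lay between 0.0297 and 0.0489. In this comparison 225 probe sets, 1.21% of those tested, were called, and 0 of the 31 members. At an unadjusted p under 0.05 there were 2 members higher and 3 lower, against 15.2% of all probe sets. With the actin ratio as a covariate, the count of 225 probe sets called fell to 0.

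In the other 2 experiments Fdft1 showed no called difference. Lesion arrays ranged from 12.70 to 13.15 with a median of 12.94, and sham arrays from 12.72 to 13.07 with a median of 12.92. The difference was 0.03 ± 0.05 (limma, adjusted p = 0.94). TTX arrays ranged from 12.54 to 13.04 with a median of 12.83, and sham arrays from 12.53 to 13.05 with a median of 12.84. That difference was 0.01 ± 0.07 (limma, adjusted p = 0.999). The groups overlapped over nearly their whole range in both experiments.

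At high haloperidol 24 of the 31 members had values below vehicle, and 7 had values above it. The median difference of the members was -0.07, and that of all 18625 probe sets tested was -0.01, with 54.2% of them lower. By unadjusted p under 0.05 there were 7 members, all lower, against 7.74% of all probe sets in either direction and 4.60% lower. For 17 of the 31 members the 95% interval lay within 0.25 on either side of 0, a 1.19-fold change, and the widest bounds were -0.47 for Aacs and 0.35 for Srebf2. By role, 15 of 17 enzymes of sterol synthesis were lower in value, as were 5 of 7 enzymes of fatty acid synthesis and 3 of the 6 regulators and transport proteins. When the arrays were scaled to a common median instead, 29 of 31 members were lower in value, with a median of -0.12, and 65.0% of all probe sets were lower. With the actin ratio as a covariate, 21 of 31 members were lower in value, with a median of -0.05. Without the arrays of low correlation the count was 26 of 31 and the median -0.08.

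**Figure D2:**
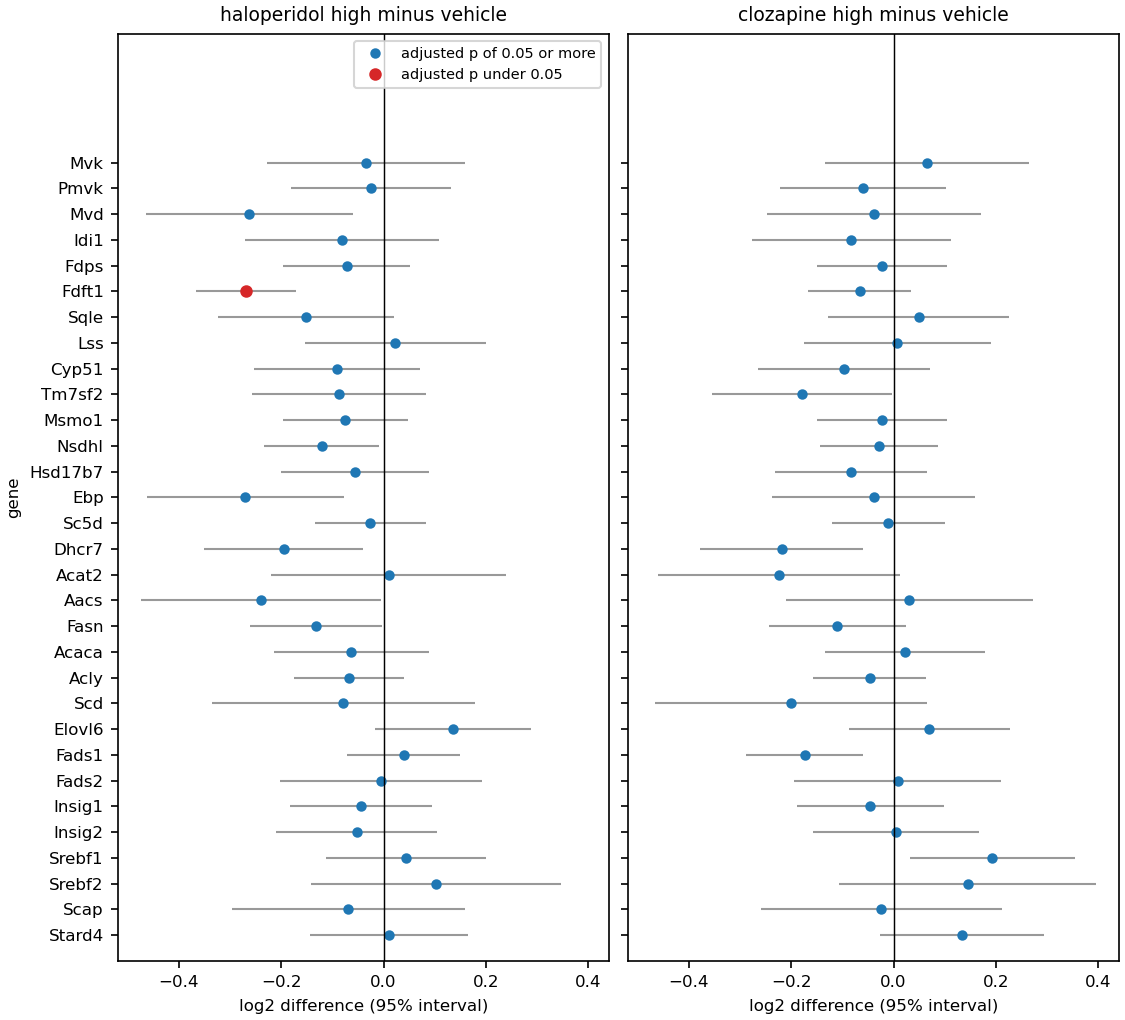
Log2 difference of each of the 31 genes at the high dose of each drug, minus vehicle, with its 95% interval; enzymes of sterol synthesis are at the top and regulators at the bottom, and red marks an adjusted p under 0.05. Fdft1 at high haloperidol, at -0.27, is the red point, and 24 of the 31 points lie left of 0 at high haloperidol.

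After Fdft1, the members with the smallest p at high haloperidol act at both ends of the pathway. Ebp, the sterol isomerase that moves a double bond in a late intermediate, ranged from 9.75 to 10.59 with a median of 10.31 at high haloperidol, and from 10.24 to 10.71 with a median of 10.46 in vehicle. Its difference was -0.27 ± 0.10 (limma, adjusted p = 0.451). Mvd, the decarboxylase that makes isopentenyl diphosphate, ranged from 9.81 to 10.60 with a median of 10.18 at high haloperidol, and from 10.18 to 10.63 with a median of 10.38 in vehicle. Its difference was -0.26 ± 0.10 (limma, adjusted p = 0.489). Both genes overlapped vehicle, and the spread at high haloperidol was wider for both.

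Within the runs of sample numbers these genes were less even than Fdft1. Ebp differed by -0.49, 0.15 and -0.35 at high haloperidol, and Mvd by 0.00, -0.67 and -0.20. The other members with an unadjusted p under 0.05 were Dhcr7, the reductase of the last step from 7-dehydrocholesterol, at -0.19 ± 0.08, and Nsdhl, which removes a carbon from the sterol ring, at -0.12 ± 0.06. So were Aacs, which makes acetoacetyl-CoA from ketone bodies, at -0.24 ± 0.12, and Fasn, the fatty acid synthase, at -0.13 ± 0.06. Their adjusted p lay between 0.512 and 0.634 in limma. With the actin ratio as a covariate the value of Aacs was 0.02.

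Between the high and the low dose of haloperidol, 0 members were called in limma, as were 0% of all probe sets. By unadjusted p under 0.05, 1 member was higher and 3 lower, against 5.52% of all probe sets. Sqle, the squalene epoxidase that follows squalene synthase, had the smallest p of the members. It averaged 12.12 ± 0.21 at high and 12.38 ± 0.14 at low haloperidol (SD, n = 9 each), a difference of -0.26 ± 0.09 (limma, adjusted p = 0.874). Against vehicle, at 12.27 ± 0.15 (SD, n = 9), high haloperidol lay below and low haloperidol above in value.

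At low and medium haloperidol, 0 members were called, against 0% and 0.00537% of all probe sets in limma. By unadjusted p under 0.05, 3 members were lower at the low dose and 2 at the medium dose, against 4.25% and 4.69% of all probe sets. Of the 31 members, 19 were lower in value at the low dose and 20 at the medium dose, with medians of -0.02 at each. Idi1, the isomerase that makes dimethylallyl diphosphate, ranged from 12.09 to 12.54 with a median of 12.35 at low haloperidol. It ranged from 12.10 to 12.63 with a median of 12.31 at medium haloperidol, and from 12.27 to 13.06 with a median of 12.53 in vehicle. Its differences from vehicle were -0.21 ± 0.09 and -0.23 ± 0.09 at those doses, and -0.08 ± 0.10 at the high dose, all overlapping vehicle and not called. The second probe set of Idi1 went the other way, at 0.28 ± 0.14, 0.19 ± 0.14 and 0.09 ± 0.14 at the low, medium and high dose, and was not called. Fads1 at low haloperidol, with a range of 13.35 to 13.60 against 13.42 to 13.78 in vehicle, differed by -0.11 ± 0.06. Fasn at medium haloperidol, with a range of 13.21 to 13.55 against 13.28 to 13.66 in vehicle, differed by -0.13 ± 0.06. Neither was called, and both overlapped vehicle.

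Over the 27 haloperidol arrays 4 members had an unadjusted p under 0.05, all lower, against 6.77% of all probe sets. They were Fdft1, Ebp at -0.19 ± 0.08 with 24 of 27 arrays below the vehicle mean, Idi1 at -0.17 ± 0.08 with 23 of 27, and Dhcr7 at -0.13 ± 0.06 with 23 of 27. The second probe set of Idi1 was 0.18 ± 0.12 in this comparison, in the opposite direction. The adjusted p of Ebp, Idi1 and Dhcr7 lay between 0.651 and 0.714 in limma. In value, 23 of the 31 members were lower, with a median of -0.03, and 56.9% of all probe sets were lower, with a median of -0.01.

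At low, medium and high clozapine, 0 members were called in limma, against 0%, 0.0215% and 0.00537% of all probe sets. By unadjusted p under 0.05 there were 3 members, 0 and 4 members, of which 1 at the high dose was higher, against 2.72%, 4.05% and 3.88% of all probe sets. In the mean of the 3 clozapine doses 0 members were called, as were 0% of all probe sets, and 4 had an unadjusted p under 0.05, against 3.82%. Of the 31 members, 20, 18 and 20 were lower in value at the 3 doses. The median differences were -0.03, -0.01 and -0.03. The 95% interval lay within 0.25 of 0 for 20, 19 and 18 of the 31 members. Under common median scaling the members' median at medium clozapine had the opposite sign, at 0.03, with 11 of 31 lower. The blood marker score, from Hbb and Alas2, was 0.78 ± 0.50 at high clozapine (SD, n = 8) and -0.09 ± 0.21 in vehicle (SD, n = 9), and its part in any value at that dose was not tested.

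Dhcr7 lay lower in value at every clozapine dose. It ranged in vehicle from 11.59 to 11.99 with a median of 11.79. Low clozapine ranged from 11.22 to 11.93 with a median of 11.58, medium clozapine from 11.52 to 11.89 with a median of 11.66, and high clozapine from 11.32 to 11.91 with a median of 11.61. Over the 27 clozapine arrays the difference was -0.18 ± 0.06, with 23 of 27 arrays below the vehicle mean (limma, adjusted p = 0.977). Every dose overlapped vehicle, and within the runs of sample numbers the difference was 0.00, -0.33 and -0.22.

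Fads1, the delta-5 desaturase that makes arachidonic acid, was also lower in value. At high clozapine it ranged from 13.17 to 13.59 with a median of 13.45, and in vehicle from 13.42 to 13.78 with a median of 13.61. The difference was -0.17 ± 0.06 at high clozapine and -0.12 ± 0.05 over the 27 clozapine arrays, of which 24 lay below the vehicle mean (limma, adjusted p = 0.987 and 0.977). At high haloperidol the difference was 0.04 ± 0.06. In the direct comparison Fads1 was 0.09 ± 0.03 in value for haloperidol minus clozapine (limma, adjusted p = 0.145), which was not called, and 21 of 27 haloperidol arrays lay above the clozapine mean. With the runs of sample numbers as a factor it was called at 0.10 (limma, adjusted p = 0.046), as was Acat2, which makes acetoacetyl-CoA from acetyl-CoA, at 0.20 (limma, adjusted p = 0.045).

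Among the regulators, Srebf1 was higher in value at each clozapine dose, by 0.14 ± 0.08 at the low, 0.09 ± 0.08 at the medium and 0.19 ± 0.08 at the high dose. High clozapine ranged from 11.75 to 12.40 with a median of 12.07, and vehicle from 11.74 to 12.04 with a median of 11.90, so the groups overlapped. The adjusted p at the high dose was 0.987 in limma. Over the 27 clozapine arrays, 21 lay above the vehicle mean. A second probe set of Srebf1 did not share this, at -0.05 ± 0.11, -0.04 ± 0.11 and 0.02 ± 0.11 at the low, medium and high dose. Stard4, which carries cholesterol between membranes, ranged from 10.99 to 11.28 at medium clozapine and from 10.67 to 11.24 in vehicle, a difference of 0.15 ± 0.08. Srebf2 differed by 0.09, 0.02 and 0.15 from vehicle at the 3 doses. Insig1, a target of the same factors and a brake on them, differed by -0.07, -0.05 and -0.05. None of these was called.

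The remaining differences at clozapine were in single doses. Lss, which closes squalene epoxide into lanosterol, ranged from 10.49 to 10.93 at low clozapine and from 10.47 to 11.30 in vehicle, a difference of -0.18 ± 0.09. It was 0.18 ± 0.09 higher in value at high than at low clozapine, a comparison in which 0 members and 0% of all probe sets were called, and in which 1 member had an unadjusted p under 0.05, against 3.23%. Mvk, the mevalonate kinase, ranged from 10.39 to 11.13 at medium clozapine and from 10.30 to 11.00 in vehicle, a difference of 0.17 ± 0.10. A second probe set of Mvk was -0.07 ± 0.10 at that dose, in the opposite direction. Tm7sf2, a sterol reductase that follows Cyp51, differed by -0.18 ± 0.09 at high clozapine. All 3 had an adjusted p of 0.984 or more.

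**Figure D3:**
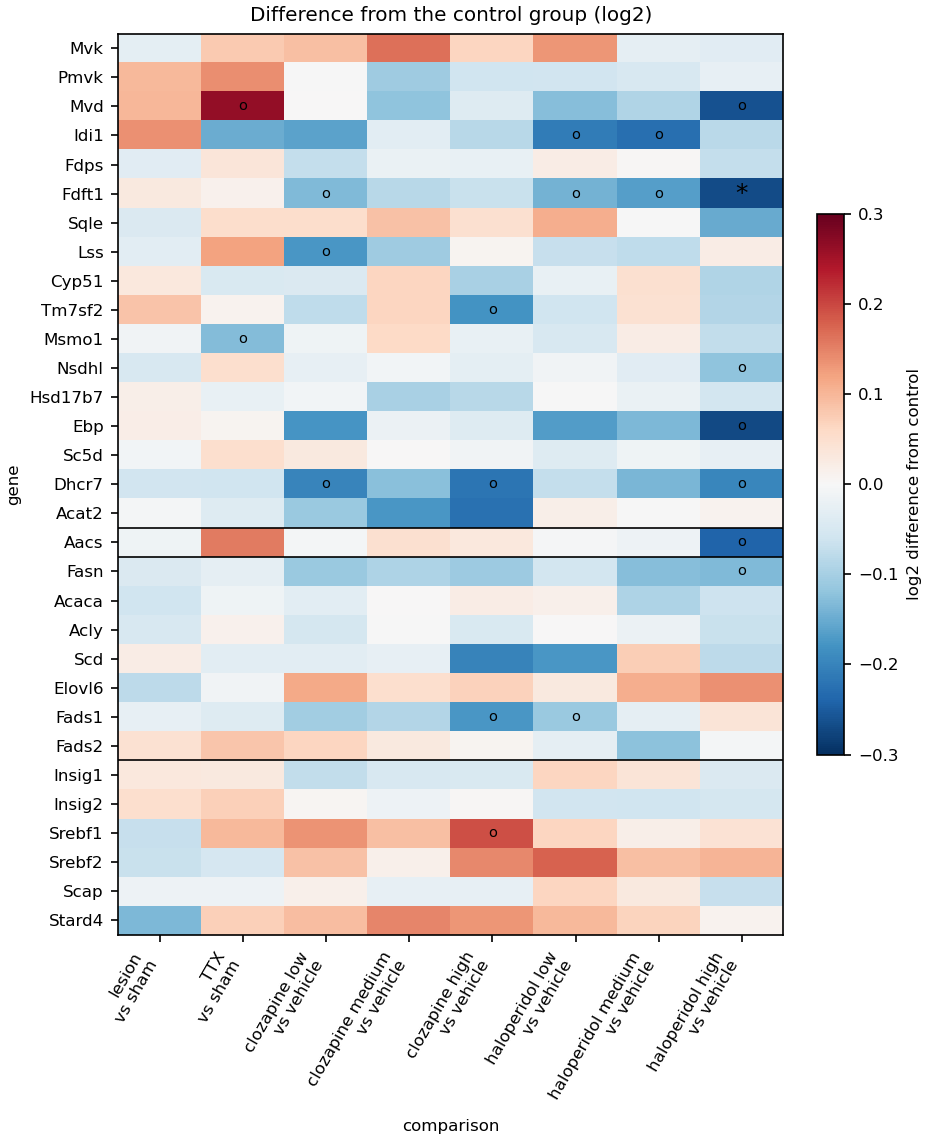
Log2 difference from the own control group for the 31 genes (rows) in 8 comparisons (columns); blue is lower and red higher than the control, an asterisk marks an adjusted p under 0.05, a small circle an unadjusted p under 0.05, and lines part the roles. The single asterisk is Fdft1 at high haloperidol, and the 7 marked genes in that column are all blue.

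After the VH lesion, 0 members were called in limma, as were 0% of all probe sets. By unadjusted p under 0.05 there were also 0 members, against 7.79% of all probe sets. Of the 31 members, 19 were lower in value, with a median difference of -0.01, and that median was 0.02 under common median scaling, with 12 of 31 lower. The smallest p belonged to Idi1, which ranged from 12.20 to 13.07 with a median of 12.38 after the lesion and from 12.22 to 12.50 with a median of 12.29 in sham. Its difference was 0.14 ± 0.08 (limma, adjusted p = 0.706). Stard4 ranged from 10.71 to 11.27 after the lesion and from 10.88 to 11.34 in sham, and differed by -0.13 ± 0.08, while its second probe set differed by 0.04 ± 0.06. Pmvk, the phosphomevalonate kinase, ranged from 11.96 to 12.66 after the lesion and from 11.86 to 12.29 in sham, and differed by 0.10 ± 0.07. All 3 overlapped sham, and none was called.

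The 95% intervals of the lesion differences show the precision for each gene. They are not adjusted for the number of genes, and they are too narrow if arrays share animals. For 24 of the 31 members the interval lay within 0.25 on either side of 0, a 1.19-fold change. The widest bounds were -0.31 for Srebf2 and 0.31 for Scd, the stearoyl-CoA desaturase.

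After TTX, 0 members were called in limma, as were 0% of all probe sets. By unadjusted p under 0.05, 1 member was higher and 1 lower, against 4.66% of all probe sets. Mvd ranged from 10.01 to 10.75 with a median of 10.38 after TTX and from 9.77 to 10.47 with a median of 10.24 in sham. Its difference was 0.26 ± 0.10 (limma, adjusted p = 0.999), and it was 0.30 and 0.20 within the 2 runs of sample numbers. Msmo1, the oxidase that takes methyl groups off the sterol ring, ranged from 13.55 to 14.05 with a median of 13.88 after TTX and from 13.89 to 14.07 with a median of 14.01 in sham. Its difference was -0.13 ± 0.06 (limma, adjusted p = 0.999). Pmvk ranged from 11.89 to 12.51 after TTX and from 11.81 to 12.30 in sham, and differed by 0.14 ± 0.08. All 3 overlapped sham. The intervals of 21 of the 31 members lay within 0.25 of 0, and the widest bound was 0.48, for Mvd.

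The lesion and the TTX effects were set against each other in a joint fit of both experiments, with 18389 probe sets. In it 0 members were called in limma, as were 0% of all probe sets, and 1 member had an unadjusted p under 0.05, against 6.31%. Idi1 had the smallest p of the members, with a lesion effect minus TTX effect of 0.29 ± 0.11 (limma, adjusted p = 0.714). Its own differences were 0.14 after the lesion and -0.15 after TTX.

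The other 18 members, which were neither called nor among the 3 smallest p of a comparison with a control, differed from their controls by between -0.24 and 0.18 over the 8 comparisons of single groups. They included Fdps, which makes farnesyl diphosphate, at -0.07 to 0.04, Cyp51, the lanosterol demethylase, at -0.10 to 0.06, and Sc5d, a late desaturase, at -0.04 to 0.05. Of the enzymes that supply fatty acids, Acly, which makes cytosolic acetyl-CoA, differed by -0.07 to 0.01, and Acaca, the acetyl-CoA carboxylase, by -0.09 to 0.02. Elovl6, an elongase, differed by -0.08 to 0.14, and Fads2, the delta-6 desaturase, by -0.12 to 0.08. Their smallest adjusted p was 0.607 in limma. Dhcr7, and Fasn by its brightest probe set, were lower in value than the control in all 8 comparisons, of which 6 share the vehicle arrays. Second probe sets of Fasn, Nsdhl and Lss were also tested, and their values are not given here.

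**Figure D4:**
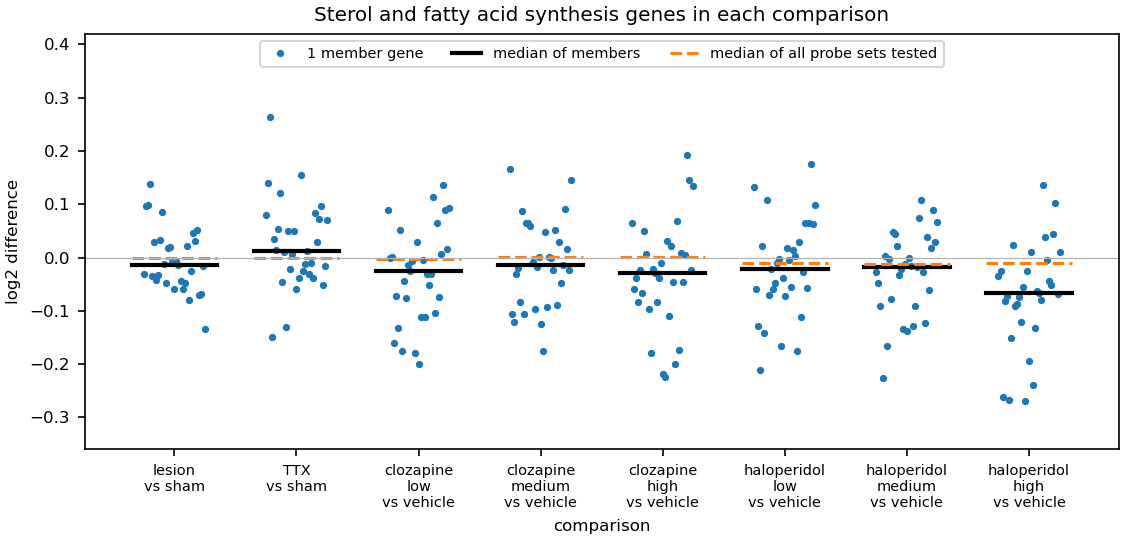
Log2 difference of each of the 31 genes (points) in 8 comparisons with their own control, with the median of the genes (black line) and of all probe sets tested (dashed orange line). At high haloperidol the median of the genes is -0.07 and that of all probe sets -0.01.

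Genes of the same pathway outside the list were counted in 4 further lists. They were other sterol and isoprenoid synthesis (11 of 12 genes measured), processing of the sterol regulatory proteins and sterol sensing (7 of 10), sterol uptake, transport, storage and turnover (17 of 18), and other fatty acid and lipid synthesis (22 of 25). In none of the 14 comparisons was any tested gene of the 4 lists called, in either direction, against 0% to 1.21% of all probe sets. At high haloperidol 6 of 10, 4 of 7, 12 of 16 and 13 of 21 tested genes were lower in value, against 54.2% of all probe sets. An uncalled gene of these lists was named only as the smallest p of its list in a comparison, as here for Cyp46a1 after TTX. Cyp46a1, the neuronal 24-hydroxylase by which the brain disposes of cholesterol, averaged 13.05 ± 0.11 after TTX (SD, n = 11) and 12.88 ± 0.12 in sham (SD, n = 9). Its difference was 0.17 ± 0.05 (limma, adjusted p = 0.999), and 10 of 11 TTX arrays lay above the sham mean.

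Since much of the brain's cholesterol goes into myelin made by oligodendrocytes, their markers were set beside the members, with those of astrocytes. The oligodendrocyte score, the mean of the centred log2 values of the markers, was -0.03 ± 0.14 at high haloperidol and -0.01 ± 0.15 in vehicle (SD, n = 9 each). It was -0.05 ± 0.30 after the lesion (SD, n = 12) and 0.06 ± 0.13 in sham (SD, n = 10). It was -0.05 ± 0.19 after TTX (SD, n = 11) and 0.06 ± 0.19 in sham (SD, n = 9). The astrocyte score, made the same way, was 0.01 ± 0.09 at high haloperidol and 0.02 ± 0.05 in vehicle (SD, n = 9 each). After the lesion it was -0.01 ± 0.07 (SD, n = 12), and 0.01 ± 0.08 in sham (SD, n = 10). After TTX it was -0.01 ± 0.09 (SD, n = 11), and 0.02 ± 0.09 in sham (SD, n = 9). At high haloperidol 9 of 14 oligodendrocyte markers were lower in value, against 54.2% of all probe sets. Of them 0 were called, against 0.0268% of all probe sets. The part of either cell type in the members' values was not tested. In bulk tissue, fewer cells of a type and less RNA per cell cannot be told apart.

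Apart from the groups, the mean correlation among the sterol enzymes was small and positive. With the group means taken out, the 136 pairs of sterol synthesis enzymes had a mean correlation across arrays of 0.14 over the 22 lesion arrays, 0.10 over the 20 TTX arrays and 0.11 over the 63 neuroleptic arrays. Across all pairs of probe sets the mean was 0.00 in each. Quantile normalisation gives every array the same distribution, which by itself holds that mean near 0. It therefore does not show what other genes of like signal would give, and those were not examined. The 21 pairs of fatty acid synthesis enzymes gave 0.16, -0.01 and 0.03. With the means of each group in each run of sample numbers taken out instead, the sterol enzymes gave 0.11 over the lesion, 0.06 over the TTX and 0.16 over the neuroleptic arrays. Single pairs ranged widely, for example from -0.44 to 0.58 among the sterol enzymes in the neuroleptic arrays. These correlations share arrays and their quality, and are a description.

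The promoters of the members were examined because many of them share known regulators. RefSeq windows of 300 bases on the GRCr8 assembly, 250 before to 50 after the start, were matched by symbol for 24 of the 31 members, and Fdft1 was not among them. On both strands, the NF-Y box CCAAT was found in 17 of 24 windows (70.8%), against 37.7% of the 8488 windows of genes on the array that were tested. The Sp1 box GGGCGG was found in 19 of 24 (79.2%), against 64.7%, and the E-box CACGTG in 3 of 24 (12.5%), against 9.78%. The sterol regulatory element TCACNCCAC, in these letters, was found in 0 of 24, against 0.99%. Matches of different motifs may share bases, since the element TCACNCCAC can run into an E-box. The windows of Ebp, Mvd and Idi1, which had the smallest p after Fdft1 at high haloperidol or in the haloperidol mean, are printed 5′ to 3′ on the gene's strand with the NF-Y box, read on either strand, in capitals. Ebp lies at chrX:16971212-16971511 on the plus strand, Mvd at chr19:67414925-67415224 and Idi1 at chr17:66547475-66547774, both on the minus strand.
Ebp: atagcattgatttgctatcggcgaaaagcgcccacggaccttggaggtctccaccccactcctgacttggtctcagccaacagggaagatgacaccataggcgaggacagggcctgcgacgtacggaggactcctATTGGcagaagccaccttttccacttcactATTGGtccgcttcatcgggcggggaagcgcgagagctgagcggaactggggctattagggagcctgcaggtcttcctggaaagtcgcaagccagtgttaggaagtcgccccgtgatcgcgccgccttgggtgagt
Mvd: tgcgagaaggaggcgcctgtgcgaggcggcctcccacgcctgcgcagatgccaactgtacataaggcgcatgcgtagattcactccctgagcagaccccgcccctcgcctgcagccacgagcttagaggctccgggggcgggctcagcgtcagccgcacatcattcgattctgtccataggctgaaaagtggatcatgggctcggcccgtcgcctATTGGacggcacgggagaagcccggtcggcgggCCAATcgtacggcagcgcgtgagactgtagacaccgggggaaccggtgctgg
Idi1: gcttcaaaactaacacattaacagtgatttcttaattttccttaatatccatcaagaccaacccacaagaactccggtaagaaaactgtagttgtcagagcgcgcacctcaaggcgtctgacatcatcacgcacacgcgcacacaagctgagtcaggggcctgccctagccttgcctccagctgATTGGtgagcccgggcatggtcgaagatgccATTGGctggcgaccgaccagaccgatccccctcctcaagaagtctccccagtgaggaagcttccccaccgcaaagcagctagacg
Each of the 3 windows holds 2 copies of the NF-Y box, a match of letters and not a measured site.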

How the data were processed

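Intensity values on a linear scale had been deposited by the authors for 105 arrays, made by software and a summarisation not given in the sources used here. Deposited values had been scaled, with a 2% trimmed mean between 2500.6 and 2500.8 on every array and medians from 775.1 to 962.3. There were 0 pairs of arrays with identical values, and the highest correlation between 2 arrays was 0.969. Within an experiment, values were quantile-normalised, set to at least 32 (6.04% of deposited values lay below this floor) and taken to log2. Then 57 control probe sets were left out, and the 60% of probe sets with the highest mean were tested. The tests were limma's (version 3.58.1, R 4.3.3; lmFit, then eBayes), with a mean for each group, no covariate and Benjamini-Hochberg adjustment; calls were made under 0.05. The 7 neuroleptic groups shared 1 residual spread. Intervals are at 95%. Gene names come from the platform's annotation table, and a gene stood for its brightest probe set. The members and lists were chosen with earlier results of these data known. Members with a call, and the 3 with the smallest p in each of the comparisons with a control, were named with their ranges; the others were named after their values were seen. The procedure was tested on simulated data, with changes added to 50 probe sets per size. Of changes of 0.125, 0.25, 0.5 and 1 on the log2 scale, 2%, 20%, 66% and 100% were recovered at high haloperidol against vehicle. For changes of 0.25 the share was 24% in the lesion and 20% in the TTX comparison, so most changes of that size were missed. All sizes were added at once, under a single adjustment and with noise independent between probe sets. The real comparisons with a control called 0 to 5 probe sets, so their adjustment was stricter. These shares may therefore be higher than those the real comparisons would reach. Figures were drawn with matplotlib 3.10.9. Alternatives are listed in the closing section.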

Additional observations from a re-analysis of the deposited data

Results flagged for a closer look

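Of 297 sets of values (a member, the mean score of the members or the actin ratio, in a group of 4 to 10 arrays), 10 held an array far from the others, 3.37%, by a test that chance alone meets in about 5% of such groups. Fdft1 was at 13.25 on vehicle array 1, with the other vehicle arrays at 12.96 to 13.09. Array 8 of high haloperidol, an array of low correlation, was highest in Pmvk at 12.76 (others 12.11 to 12.42) and lowest in Fasn at 12.96 (others 13.30 to 13.64). Array 8 of medium haloperidol, also of low correlation, was highest in Tm7sf2 at 11.37 (others 10.87 to 11.09). Elovl6 was highest on high clozapine array 2 at 12.20 (others 11.86 to 11.99) and on medium haloperidol array 9 at 12.60 (others 11.73 to 12.16). At medium clozapine, Insig2 was lowest on array 4 at 11.79 (others 12.15 to 12.48) and Fads1 on array 5 at 13.30 (others 13.48 to 13.61). Among the sham rats of the TTX experiment, Nsdhl was highest on array 7 at 12.29 (others 11.90 to 12.09), and the mean score of the members was lowest on array 2 at -0.15 (others -0.05 to 0.04). All values are log2 intensities, the score being centred on the mean of the experiment.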

How the results depend on the processing

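No paired analysis was possible because the labels carry no replicate numbers that groups share; arrays are numbered in the order of the series. The other settings were the values as deposited, a common median, floors of 1 and 100, no filter, the brightest 40%, array weights, the runs of sample numbers as a factor, a trended and robust fit, the mean of all probe sets of a gene, only the groups compared, no arrays of low correlation, and leaving out each array; leaving control probe sets out before normalisation and the actin ratio as a covariate were chosen after seeing the data. No called member changed direction. Fdft1 at high haloperidol was the 1 member called, and 0 were called with a common median, the mean of all probe sets (-0.20, limma, adjusted p = 0.0535), the actin ratio, or only the groups compared. In the haloperidol mean, also 1 member, 0 were called under 10 settings: as deposited, common median, floor of 100 (adjusted p = 0.0501), no filter, weights, no arrays of low correlation, mean of probe sets, controls out first (adjusted p = 0.0503), actin ratio, and groups compared. Over left-out arrays this count was 0 to 1. For haloperidol minus clozapine the member count, 0, was 1 with a common median or the brightest 40% (both Fdft1), 0 to 1 over left-out arrays, and 3 with runs as a factor (Fdft1, Acat2 at 0.20 and Fads1 at 0.10; adjusted p = 0.0217, 0.045 and 0.046). Probe sets called there, 225, were 49 without a filter, 531 with weights, 68 without arrays of low correlation, 872 with runs as a factor, 0 with the actin ratio, and 56 to 661 over left-out arrays. At high haloperidol the 5 probe sets were 3 without a filter, 8 with weights, 9 with runs as a factor, 3 with the mean of probe sets, 3 with the actin ratio, 1 with only the groups compared, and 3 to 8 over left-out arrays. In the haloperidol mean the 4 were 1 with a common median, no filter, the mean of probe sets or only the groups compared, and 1 to 5 over left-out arrays. At medium haloperidol the 1 was 3 with weights or without arrays of low correlation, 2 with runs as a factor, 0 with the mean of probe sets, and 0 to 3 over left-out arrays. At medium clozapine the 4 were 7 with a common median or the brightest 40%, 10 with weights and 1 with only the groups compared. At high clozapine the 1 was 2 with weights, and 1 to 2 over left-out arrays. In the clozapine mean the 0 was 1 as deposited, with a common median, the brightest 40%, without arrays of low correlation or with the trended fit, and 0 to 1 over left-out arrays. After the lesion the 0 was 1 without a filter, and 0 to 1 over left-out arrays. For high against low dose the 0 was 4 with the brightest 40% and 0 to 7 over left-out arrays at clozapine, and 0 to 2 over left-out arrays at haloperidol. The causes were not tested. A common median moved the share of all probe sets that were lower from 56.1% to 69.3% for haloperidol minus clozapine, and gave 39.7% after the lesion against 50.5%, and 37.7% at medium clozapine against 49.2%. Without the arrays of low correlation, 18 of the 31 members were lower in value after the lesion against 19, 19 at medium haloperidol against 20, and 24 in the haloperidol mean against 23. The number of arrays limits what a call can show.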
